A study of Mus musculus with 2 samples.

Results

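B cells found in a suspension of mouse pancreatic islet cells are described here. Single-cell RNA sequencing had been run on islets of C57BL/6 mice at postnatal day 70 (10 weeks), with 1 library from wild type mice and 1 from mice carrying a miR-503 transgene specific to beta cells. The promoter of the transgene and the number and sex of the mice behind each library are not given in the sources used here. Members were cells with at most 10% of their UMIs (unique molecular identifiers, each standing for 1 captured transcript) from mitochondrially encoded genes. They also had Ins1 and Ins2 together below 15%, Gcg below 3% and Sst below 2% of UMIs, at least 5 UMIs of Cd79a, Cd79b and Ms4a1 together, and fewer than 5 of C1qa, C1qb and C1qc together. The rule found 81 cells among the 8674 kept, 24 of 4523 in the wild type and 57 of 4151 in the transgenic library. The measured values of those genes chose the cells, so their levels are given as a description only.

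B cells are lymphocytes that recognise antigen through a membrane immunoglobulin, the B cell receptor. Cd79a and Cd79b form its signalling part, and Ms4a1 encodes the surface protein CD20. B cells take up antigen and show it to T cells on MHC class II molecules, refine their receptors in germinal centres, and can become antibody-secreting plasma cells. In the pancreas they are best known from lymph nodes near the gland and from the infiltrates of autoimmune diabetes. B1 cells are a separate innate-like lineage typical of body cavities.

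With 1 library in each group no test between genotypes could be made. Intervals below are exact 95% intervals that cover counting error only, and the genotype cannot be told apart from any other difference between the libraries. The deposited barcodes reached down to 5727 UMIs in the wild type and 6671 in the transgenic library. B cells lay close to those floors, with a median of 8775 UMIs (range 5768 to 28561) in the wild type and 10131 (6774 to 46728) in the transgenic library, against 23187 and 29158.5 in beta cells. Below 8000 UMIs lay 10 of the 24 wild type and 14 of the 57 transgenic B cells. The libraries shared 25 barcodes, and no barcode was a B cell in both.

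Because the transgene encodes miR-503, whose targets are examined below, its mature sequence is shown with those of related microRNAs. Sequences are from RefSeq (GRCm38.p6), 5′ to 3′, with the seed (bases 2 to 8), the stretch that pairs with targets, in capitals. Mir503 lies on the minus strand of chrX:53054027-53054049 (mature miR-503-5p).
mmu-miR-503-5p: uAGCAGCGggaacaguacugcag
mmu-miR-16-5p: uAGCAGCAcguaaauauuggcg
mmu-miR-15a-5p: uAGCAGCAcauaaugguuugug
mmu-miR-322-5p: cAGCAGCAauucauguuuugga
The seed of miR-503-5p was AGCAGCG, and the other 3 sequences shared AGCAGCA. Mature microRNAs were not analysed here, so whether any B cell carried miR-503 was not measured.

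The genes of the rule marked most cells that met it. Cd79a (chr7:24897381-24902197) had between 0 and 34 UMIs per wild type B cell, with a median of 12, and between 3 and 65, with a median of 15, per transgenic B cell. Cd79b (chr11:106311341-106314762) was detected in 18 of 24 and 50 of 57 cells, and Ms4a1 (chr19:11249675-11266241) in 20 of 24 and 48 of 57. Ighm and Igkc, the other genes that mark these cells, were not analysed here, nor were other immunoglobulin constant or variable segments.

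Cd79a alone did not separate B cells in these libraries. Beta cells carried a UMI of it in 46.8% (wild type) and 48.1% (transgenic) of cases. Among the 420 wild type and 413 transgenic kept cells with at least 5 UMIs of the 3 genes, a hormone ceiling left out 385 and 349, and in those Cd79a made up 99.8% and 97.2% of the UMIs of the 3 genes. In B cells it made up 55.4% and 61.7%. Beta cells with a UMI of Ms4a1 made up 0.436% in the wild type and 3.05% in the transgenic library, so UMIs of B cell genes in other cells were more frequent in the transgenic library. At the threshold, 1 cell in each library had exactly 5 UMIs of the 3 genes, and 2 wild type and 0 transgenic low-hormone cells had exactly 4.

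Not every member looked like a B cell alone. By limits set after the values were seen, 4 of 24 wild type and 6 of 57 transgenic members carried genes of another cell type or lacked MHC class II, and are called mixed below. A wild type member had 1454 UMIs of Ppy, the pancreatic polypeptide hormone, 6 of Cd79a and 8 of the MHC class II genes Cd74, H2-Aa, H2-Ab1 and H2-Eb1 together. Another had 877 UMIs of Lyz2 and 280 of Apoe, both macrophage genes, with 10 of MHC class II and none of Cd79a or Ms4a1. These 2 cells go against the label. Another wild type member held 219 UMIs of Dcn, a matrix gene of fibroblasts, beside 556 of Jchain. The last of the wild type mixed cells had 30 UMIs of the endothelial genes Pecam1, Flt1, Kdr and Plvap. In the transgenic library 3 members had at least 3 UMIs of Cd3d, Cd3e and Cd3g, the T cell receptor signalling chains, and 3 had at least 10 of the stromal genes Ccl21a, Cxcl13, Mfge8, Cxcl12 and Dcn. Every other member held at least 20 MHC class II UMIs by the definition of mixed. The 9 NK cell markers summed to 0 UMIs in wild type and 5 in transgenic B cells. The 13 T cell markers in the gene table summed to 12 UMIs in wild type members, with 9 of them at 0, Cd3d, Cd3e and Cd8a among these. In transgenic members they summed to 60, with 4 at 0, Cd4 and Cd8a among these and Cd3d and Cd3e not. The limits for mixed used no acinar, duct or dendritic cell genes and no insulin share. The 13 acinar and duct markers in the gene table summed to 8 UMIs in wild type and 152 in transgenic members, up to 42 in 1 cell. In the transgenic library 2 members with insulin at or above 5% were not called mixed.

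**Figure D1:**
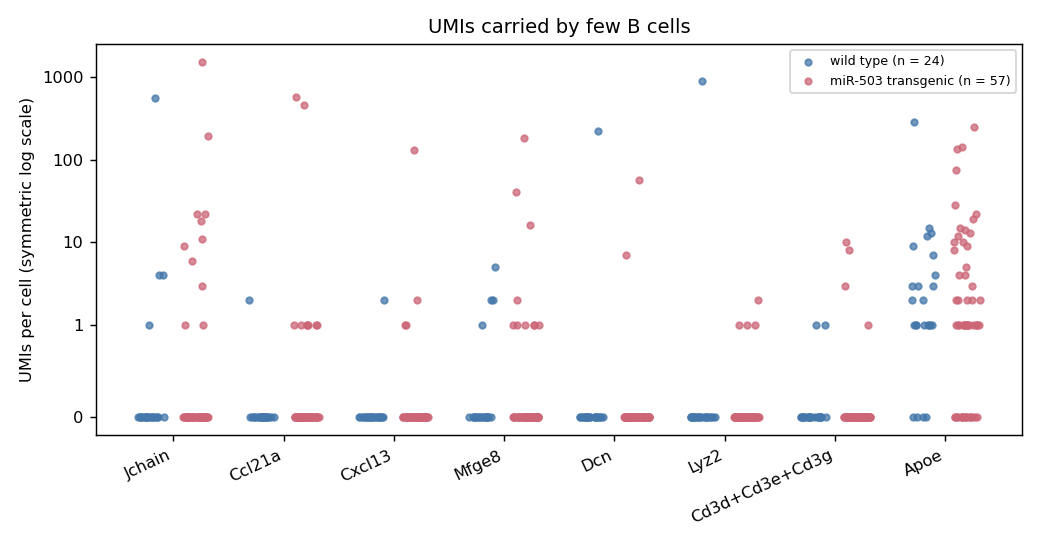
UMIs per cell (symmetric log scale) of 8 genes or gene sums in each of 24 wild type (blue) and 57 transgenic (red) B cells, 1 point per cell with sideways spread. Most cells lie at 0 for Jchain, Ccl21a, Cxcl13, Dcn and Lyz2, and single cells reach 556 and 1514 UMIs of Jchain, 567 of Ccl21a and 877 of Lyz2.

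B cells made up 0.531% (0.340 to 0.789) of kept wild type cells and 1.37% (1.04 to 1.78) of kept transgenic cells. The intervals did not overlap. This was not particular to B cells. Intervals were also apart for beta cells (76.0% and 66.3%), alpha cells (10.9% and 16.8%) and delta cells (3.1% and 6.1%). The C1q-positive macrophages went the other way from B cells, with 76 (1.68%) and 43 (1.04%), and Cd3-positive T cells numbered 3 and 12. Intervals of the macrophages and of the T cells overlapped. Without the mixed members the B cell shares were 0.442% and 1.23%. Counting wild type barcodes from the transgenic floor of 6671 UMIs gave 0.447% against 1.37%. UMIs of B cell genes in beta cells also differed between the libraries, as the Ms4a1 values show, and so did those of Ccl21a, the chemokine of lymphatic vessels and lymph node stroma, with a UMI in 0.553% of beta cells in the wild type and 21.2% in the transgenic library. The part of carried-over lymphoid tissue in the larger share was not tested.

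Sex-linked transcripts were compared with those of the endocrine cells. Xist, expressed in female cells, was detected in 1 of 57 transgenic B cells, in 368 of 2752 beta cells (13.4%) and in 110 of 696 alpha cells (15.8%). A Y-linked gene was detected in 34 of the 57. B cells were shallower than beta cells. Transgenic delta cells, with a median of 9565 UMIs against 10131 in transgenic B cells, had Xist in 34 of 253 (13.4%). The part of depth in these shares was not tested. In the wild type library Xist was detected in 0 of 24 B cells, which allows a share of cells with a UMI of up to 12.5% by a limit of 3 counts, and in 10 of 3439 beta cells (0.291%). A Y-linked gene was detected in 9 of those 24. The endocrine cells of the 2 libraries thus differed in Xist, and genotype and the sex of the mice cannot be told apart.

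The genes most particular to these cells were described by the ratio of their CPM (UMIs scaled to a common library total) in B cells to the highest CPM among summed beta, alpha, delta and macrophage cells. Of 3542 genes with at least 30 UMIs in B cells, 77 (2.17%) were at least 10-fold higher in both libraries. Some of these rested on few cells: 2810417H13Rik (410-fold) was detected in 6 wild type and 15 transgenic B cells. Because the cells were chosen by expressed genes and the minimum was counted in B cells, these ratios carry no test. After Jchain, the joining chain of secreted immunoglobulin, came Mzb1, an endoplasmic reticulum protein of immunoglobulin-producing cells, at 907-fold. Spib (425-fold), Pax5 (181-fold) and Pou2af1 (177-fold) are transcription regulators of the lineage. Tnfrsf13c (355-fold) encodes the receptor for the survival factor BAFF. Cd22 (166-fold) and Bank1 (232-fold) tune receptor signalling, and Ccr6 (279-fold) and Cxcr5 (232-fold) are chemokine receptors, Cxcr5 being the one that guides B cells to follicles. Of the 19 surface and lineage genes with at least 50 UMIs over B cells and macrophages, 18 were over 2-fold higher in B cells in each library, against 14.3% of 4602 genes. Cd72 was the other, at 103 CPM in wild type B cells and 184 CPM in wild type macrophages. The members were chosen by genes of this lineage. Genes such as Cd22 and Pax5, with 0 UMIs in macrophages, passed the minimum through B cells alone. The count is therefore a description and carries no test.

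Antigen presentation divided B cells from macrophages gene by gene. Cd74, the invariant chain that accompanies MHC class II, was at 12415 CPM in wild type B cells and 34783.5 CPM in wild type macrophages, and at 13156.6 and 38025.2 CPM in the transgenic library. H2-Aa, H2-Ab1 and H2-Eb1 were likewise 2.70- to 3.77-fold lower in B cells. Ctss, a protease that trims the invariant chain, was at 357 CPM in wild type B cells against 2950 in macrophages. Chains of the peptide-loading catalyst H2-DM differed in direction. H2-DMb2 was 62.8-fold higher in wild type and 41.8-fold higher in transgenic B cells, while H2-DMb1 was 6.75- and 6.98-fold lower and H2-DMa 1.76- and 1.44-fold lower. H2-Oa, a chain of the catalyst's inhibitor H2-O, was 3.38- and 12.5-fold higher. H2-Ob, its partner chain, was at 117 and 238 CPM in B cells and at 7.11 and 0 CPM in macrophages. Over the list, 3 of 12 genes were over 2-fold higher in B cells in each library, against 14.3% of all genes compared. Over 2-fold lower were 7, against 12.8%. The 3 higher genes met the UMI minimum through B cells and not through macrophages. Wild type and transgenic macrophages held 7 and 6 UMIs of H2-DMb2, 22 and 8 of H2-Oa, and 7 and 0 of H2-Ob. These counts of genes are therefore a description and carry no test.

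Cells with proliferation genes were among the most deeply sequenced ones in the transgenic library, and 1 of the 2 in the wild type was not. At least 3 UMIs of Mki67 and Top2a, a topoisomerase of dividing cells, were found in 2 of 24 wild type and 13 of 57 transgenic B cells. All 13 transgenic cells had over 15000 UMIs, with a median of 23006 against 8762 for the other transgenic B cells. Unthinned, 20.8% of wild type B cells and 29.8% of transgenic ones had a UMI of Top2a. With each cell thinned to 3000 UMIs, the share expected over all possible draws was 12.65% and 13.6%, and the exact intervals at the nearest whole counts, 2.66 to 32.4 and 6.26 to 25.8, overlapped. Mki67 gave 8.33% and 21.1% unthinned, and 6.14% and 6.57% expected after thinning. A difference in the share of cells with these genes was not detectable at this depth.

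**Figure D2:**
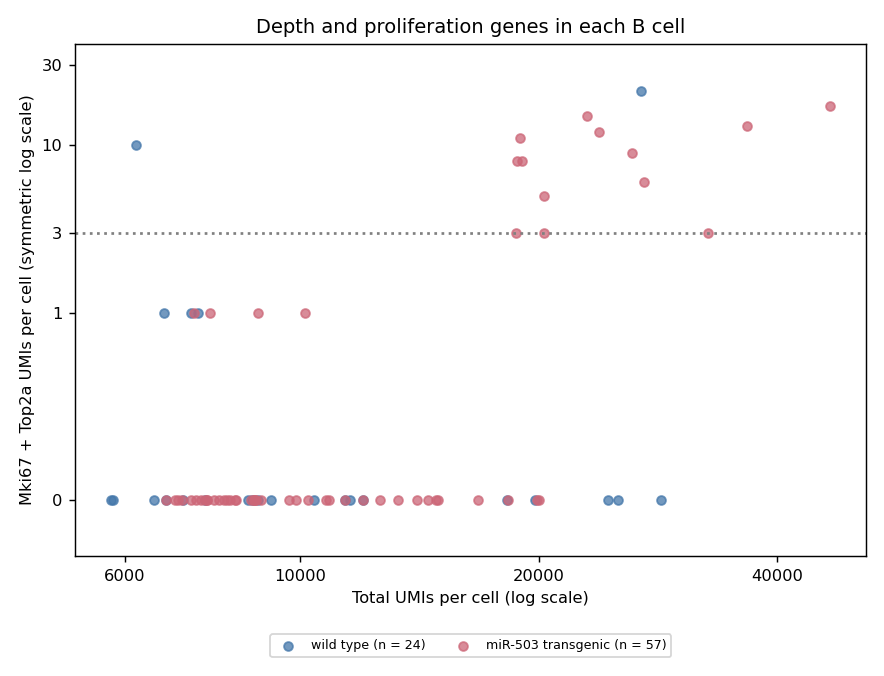
Mki67 and Top2a UMIs (symmetric log scale) against total UMIs (log scale) in each B cell, blue for wild type and red for transgenic. On or above the dotted line at 3 lie 2 wild type and 13 transgenic cells, and all 13 exceed 15000 total UMIs.

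Jchain marked 3 cells. It reached 556 UMIs in 1 wild type cell, of 565 in all 24, and 1514 and 192 UMIs in 2 transgenic cells, of 1799 in all 57. The wild type cell was the mixed one with Dcn. The transgenic cell with 1514 held 33 UMIs of Mzb1 and 1 of Plac8. The Jchain totals rest on these cells, and the log2 ratio of transgenic over wild type was 0.20 with and 5.96 without the mixed members.

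Between the genotypes, UMIs were summed over the B cells of each library and scaled by TMM (trimmed mean of M values). Of 2274 genes with at least 50 UMIs, 49 (2.15%) were at least 2-fold higher and 98 (4.31%) at least 2-fold lower in transgenic B cells, 6.46% in either direction. This split depended on the scaling and on a few cells. TMM over all genes gave 125 higher and 52 lower, leaving out the top cell of each gene in each library gave 139 and 52, and leaving out the mixed members gave 45 and 28. The median gene had a log2 ratio of 0.02. Log2 ratios below are transgenic over wild type.

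Several of the farthest genes rested on 1 or 2 cells. Ccl21a had 2 UMIs in wild type and 1032 in transgenic B cells, 567 of them in 1 cell and 458 in another, both mixed. Cxcl13, the ligand of Cxcr5, had 130 of its 134 transgenic UMIs in 1 mixed cell. That cell also held 181 of the 245 UMIs of Mfge8, a bridging protein for apoptotic cells made by follicular dendritic cells. Lyz1 had 331 UMIs, Il22ra2 79 and Pla2g2d 62 in wild type B cells and 0 in transgenic ones, in at most 2 cells each. Dcn had 219 UMIs in 1 wild type cell and 64 in 2 transgenic cells. Gsn, an actin-severing protein, was at -1.84 and at 1.38 without the mixed members. Ccl4, a chemokine of activated cells, was at 2.71 and at -0.15 without the top cells.

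S100a6, a calcium-binding protein found in B1 cells, differed over many cells. Wild type B cells had between 0 and 34 UMIs, with a median of 3.5, and transgenic cells between 0 and 5, with a median of 0. A UMI of it was present in 15 of 24 wild type cells and 19 of 57 transgenic cells, and 12 and 5 cells held at least 3 UMIs. Every count above 5 was in a wild type cell, while the low counts overlapped. The sums were 157 and 36 UMIs, a log2 ratio of -3.59 (-4.16 to -3.06), and -3.73 without the mixed members. It stayed between -3.73 and -3.12 over the alternatives run. After thinning to 3000 UMIs its expected shares were 51.6% (29.1 to 70.9) and 14.4% (6.26 to 25.8) of cells. Among the 33 genes thinned it alone had intervals that did not overlap. Those genes were chosen after their values were seen, and the share over all genes was not computed. The count is therefore a description and carries no test. In macrophages S100a6 was at 117 and 116 CPM. The gene lies at chr3:90612882-90624181 (GRCm38).

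Other genes of the B1 list were lower too. The list was chosen with earlier results of these data known. Of its 7 measured genes, S100a6 included, 6 were below 0, against 1107 of the 2274 genes measured in all. The median of the list was -0.96 against 0.02 for all genes. The median stayed below 0 under every alternative run, between -2.18 and -0.71, and was -1.26 over 5 genes without the mixed members. Ahnak, a large scaffold protein, was at -1.57 (-2.36 to -0.77), Plscr1, a phospholipid scramblase, at -1.20 (-1.94 to -0.46) and Anxa2, a membrane-binding annexin, at -0.96 (-1.66 to -0.25). Bhlhe40 was at 0.82 (-0.17 to 1.97). Bhlhe41, a transcription factor needed for B1 cells, fell under the 50 UMI minimum, with 26 UMIs in 12 of 24 wild type and 18 in 7 of 57 transgenic cells, and 13 of the 26 in 1 cell. Cd5, the classical B1 surface marker, had 0 and 2 UMIs. Anxa2, Ahnak and Vim were also detected in macrophages.

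The wild type B cells with S100a6 were compared with the others of their library. Of the 12 with at least 3 UMIs, 10 were not mixed. All 10 had Plac8, with a median of 8.5 UMIs per cell. Plac8 was not particular to them. It was detected in 19 of all 24 wild type and 48 of 57 transgenic B cells, and reached 54 UMIs in 1 of the other unmixed wild type cells. Anxa2 was detected in 8 of these 10 cells and in 3 of the 10 other unmixed wild type cells, and Ahnak in 7 and in 2. The cells with S100a6 were the shallower ones, with a median of 7347 UMIs against 11479.5. Vim, an intermediate filament protein, was detected in 8 of 10 on both sides. Bhlhe41 was detected in 6 and 3 cells, with at most 1 UMI per cell where S100a6 was high, and the cell with 13 was among the others. In the transgenic library the 5 such cells had 3 to 5 UMIs of S100a6, and Anxa2 was detected in 3 of them. These cells were sorted by S100a6 after its values were seen, and their counts are a description.

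**Figure D3:**
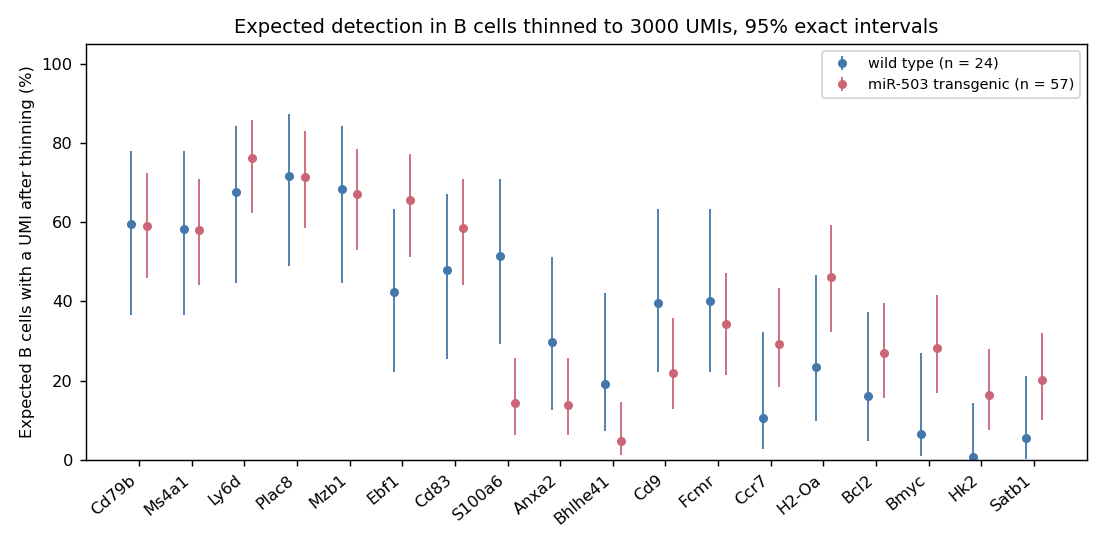
Share of B cells expected to hold a UMI of each gene after thinning every cell to 3000 UMIs, over all possible draws, wild type blue (n = 24) and transgenic red (n = 57), with exact 95% intervals at the nearest whole count. The genes shown were chosen after their values were seen. Intervals of S100a6 do not overlap, and those of the other genes shown do.

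Among the homing genes, Ccr7 (chr11:99144196-99155077) stood highest. Wild type B cells had between 0 and 2 UMIs, with 10 UMIs in 7 of 24 cells, and transgenic cells between 0 and 30, with 144 UMIs in 29 of 57. At least 3 UMIs were held by 0 and 14 cells. The log2 ratio was 2.38 (1.46 to 3.47), between 1.16 and 2.80 over the alternatives. The lowest value, 1.16, came from members with at least 10 UMIs of the 3 marker genes: the 9 transgenic members below that held 73 of the 144 UMIs, and the 5 wild type ones held 0. Expected thinned shares were 10.6% (2.66 to 32.4) and 29.3% (18.4 to 43.4), whose intervals overlapped. Beta cells differed in Ccr7 as well, with a UMI in 0.320% of beta cells in the wild type and 4.65% in the transgenic library, and its part in the result was not tested. Transgenic T cells held 60 Ccr7 UMIs in 9 of 12 cells. The 14 miR-503 transgenic B cells with at least 3 held 123 of the 144 UMIs, and their median depth was 8518 UMIs against 10869 in the other 43. They had a median of 6.5 UMIs of Cd79a against 16, and Ms4a1 was detected in 9 of 14 against 39 of 43. Itgb1, an integrin chain, was at -1.08 (-1.92 to -0.23) and Ccr6 at 0.70 (-0.15 to 1.65). Of the 8 measured homing genes 4 were above 0 and 4 below.

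Other genes were higher over many cells. Hk2, the hexokinase that starts glycolysis, had 1 UMI in 1 of 24 wild type cells and 64 in 22 of 57 transgenic cells, 17 of them in 1 cell. The log2 ratio was 4.53 (2.002 to 9.86), and expected thinned shares were 0.685% (0 to 14.2) and 16.3% (7.48 to 27.9), whose intervals overlapped. Macrophages carried it in both libraries, in 25 of 76 and 23 of 43 cells. Bmyc, a Myc relative, had 9 UMIs in 5 wild type cells and 109 in 35 transgenic cells (log2 2.13, 1.15 to 3.30). Satb1, a chromatin organiser of lymphocytes, had 5 in 5 cells and 52 in 27 cells (1.91, 0.60 to 3.59). Ldha, which makes lactate, was at 0.57 (0.22 to 0.93) and Pkm, a late glycolytic enzyme, at -0.33 (-0.65 to -0.00).

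Core B cell genes came next. Of 18 measured surface and lineage genes 11 were above 0 and 0 reached 2-fold, near the 6.46% of all genes, with a median of 0.13, or -0.10 without the mixed members. Cd37, a B cell tetraspanin, was at 0.05 (-0.24 to 0.36). Ms4a1 is outside this list and helped to choose the cells, so its ratio of -0.16 is a description only. Ebf1, a lineage-setting factor, was at 0.81 (0.39 to 1.25) and Cd72 at 0.94 (0.37 to 1.55). Of 15 receptor signalling genes 9 were above 0, with a median of 0.12, or -0.10 without the mixed members. Blnk, the adaptor below the receptor, was at 0.36 (-0.13 to 0.89) and Syk, the kinase that starts the signal, at -0.63 (-1.40 to 0.17).

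Costimulation genes were similar, with 6 of 10 above 0 and a median of 0.11, or 0.02 without the mixed members. Tnfrsf13c was at 0.41 (-0.09 to 0.94), Tnfrsf13b, which binds BAFF and APRIL, at 0.39 (-0.28 to 1.11) and Cd40, the receptor for T cell help, at -0.53 (-1.29 to 0.26). Cd200, an inhibitory surface ligand, was at -0.77 (-1.38 to -0.14) and at 0.79 without the mixed members, with 13 of its 37 wild type UMIs in 1 cell.

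The other lists for B cell subsets were split between the directions. Of 5 follicular genes 3 were above 0, with a median of 0.09, or -0.31 without the mixed members, and of 5 marginal zone genes 2, with -0.18 and 0.18. Cd9, a tetraspanin of marginal zone and B1 cells, had 55 UMIs in 16 wild type and 64 in 30 transgenic cells, at -1.25 (-1.79 to -0.70) and -1.09 without the mixed members. Plac8 was at 0.68 (0.50 to 0.86), and 0.32 without the mixed members. Of 6 plasma cell genes 3 were above 0, and Xbp1, the secretory factor, was at -0.07 (-0.56 to 0.45).

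Of 12 antigen presentation genes 9 were above 0, with a median of 0.19, or -0.08 without the mixed members. H2-Oa had 22 UMIs in 12 wild type cells and 165 in 47 transgenic cells, a log2 ratio of 1.44 (0.79 to 2.15), and 1.08 without the mixed members. Its expected thinned shares were 23.5% (9.77 to 46.7) and 46.1% (32.4 to 59.3), whose intervals overlapped. H2-Ob was at 0.98 (0.45 to 1.56), and 0.57 without the mixed members. Cd74 was at 0.04 (-0.01 to 0.10).

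The miR-503 family target list, of genes often reported for this seed family, could say little. Of 27 genes 5 were measured, 4 of them above 0, with a median of 0.42, and the median ranged from -0.41 to 0.67 over the alternatives. Bcl2, the anti-apoptotic target, had 16 UMIs in 10 wild type and 77 in 34 transgenic cells, at 0.80 (0.01 to 1.68), and had expected thinned shares of 15.97% (4.74 to 37.4) and 27.0% (15.5 to 39.7), whose intervals overlapped. Ccnd2, a cyclin of the G1 phase, was at -0.49 (-0.84 to -0.13), and Zfp36l1, an RNA-decay factor, at 0.80 (0.11 to 1.55). Over the survival list, which shares Bcl2, 10 of 15 genes were above 0, with a median of 0.25 that stayed between 0.13 and 0.50. Bcl2a1b, a related survival gene whose near-identical copies may share reads, was at 0.81 (0.23 to 1.42), and Mcl1 at -0.65 (-1.09 to -0.21).

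The medians of the stress, interferon and cell cycle lists depended on which cells were kept. Of 12 heat shock genes 11 were below 0, with a median of -0.56, but 0.15 without the mixed members. Dnajb1, a co-chaperone, was at -1.02 (-1.44 to -0.60) with 44 of 83 wild type UMIs in 1 cell. Activation genes were split too, with 9 of 21 above 0 and a median of -0.23, or 0.24 without the mixed members. Fosb, an immediate early factor, was at -1.85 (-2.41 to -1.29) with 39 of 65 wild type UMIs in 1 cell, and Dusp2, a phosphatase of activated lymphocytes, at 1.24 (0.32 to 2.31). Of 26 interferon-induced genes 15 were above 0, with a median of 0.14, or -0.13 without the mixed members. Ifi27l2a was at 1.003 (0.76 to 1.26) and Ifit3b at -1.43 (-2.14 to -0.71). Of 12 cell cycle genes 11 were above 0, with a median of 0.46, and -0.64 without the proliferating members. Of 56 ribosomal protein genes 46 were above 0, with a median of 0.09, or -0.03 without the mixed members.

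**Figure D4:**
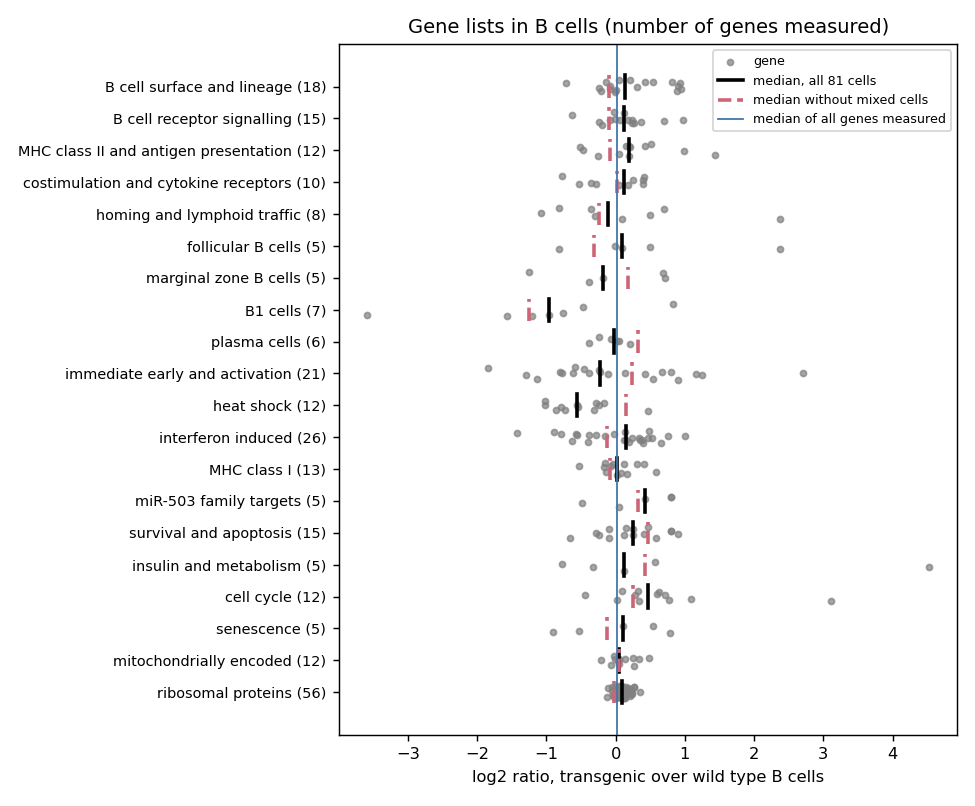
Log2 ratios (transgenic over wild type) of the measured genes of each list in B cells, with the number measured beside its name. Black bars are medians over all 81 cells, red dashed bars medians without the mixed cells, and the blue line the median of all genes measured. Lists with at least 5 measured genes are shown, without those of other cell types' markers. Of these the B1 list lies lowest with both bars, at -0.96 and -1.26, and the heat shock list moves from -0.56 to 0.15.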

How the data were processed

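The deposited values were UMI counts per gene in each cell. The authors' tools, per the submitters' processing notes, included STAR 2.5.1b and Cell Ranger 2.1.0, with mm10 as the build. The annotation release and the filter behind the barcodes are not given in the sources used here. Of 8698 barcodes, 24 with over 10% mitochondrial UMIs were removed. Doublets were not removed: Scrublet in scanpy 1.11.5 marked 0.0442% and 0.169% of cells, too few to have worked, and the top 4% of scores served as an alternative.

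UMIs were summed over B cells per library and compared as ratios with exact conditional binomial intervals. Shares carry Clopper-Pearson intervals, and detection was also taken after thinning to 3000 UMIs, as the share expected over all draws (hypergeometric), in place of the single seeded draw of the design, since that draw moved some shares. TMM factors used genes with at least 50 UMIs. That restriction was set after a first run over all genes (125 genes higher, 52 lower), because the unrestricted factor shifted unchanged genes in simulated counts. The stated design had named TMM alone.

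Named genes were the list members farthest from 0 (up to 4 a list), the 10 highest and 10 lowest ratios outside genes over 2-fold higher in another class, the 20 most B cell-enriched genes and the genes of the rule. Others named in the text were chosen after their values were seen. So were the limits for mixed (at least 3 Cd3 UMIs, 5 of Lyz1, Lyz2 and Csf1r, 10 of Ccl21a, Cxcl13, Mfge8, Cxcl12 and Dcn, 10 of Pecam1, Flt1, Kdr and Plvap, or under 20 of MHC class II), proliferating, Jchain, S100a6 and Ccr7 cells, the comparison with macrophages and the genes thinned. The members and the gene lists were chosen with earlier results of these data known. Planned light chain and isotype results were not run, since those genes were not analysed here. A promoter search for 1 motif, which matched 1 gene, is not reported. Some genes and the cells chosen by them are not reported here. Coordinates are from the GRCm38 annotation. Python 3.11.15, numpy 2.4.6, scipy 1.17.1, pandas 2.3.3 and matplotlib 3.10.9 were used.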

Additional observations from a re-analysis of the deposited data

Results flagged for a closer look

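The interferon-induced list had medians of opposite sign in the B cells and macrophages of these libraries. The median log2 ratio of transgenic over wild type was 0.14 in B cells and -0.48 in macrophages, each over the genes measured in that cell type. The difference was not tested, since each genotype has 1 library, and the B cell median was -0.13 without the mixed members. Over the 25 genes measured in both cell types the medians were 0.14 in B cells and -0.47 in macrophages, and 17 had a higher ratio in B cells.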

How the results depend on the processing

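The B cell shares stayed within their counting intervals under all 9 alternatives. The counts of genes at least 2-fold higher and lower, 49 and 98, did not hold. They were 18 and 33 at a minimum of 100 UMIs, 255 and 384 at 20, 2728 and 3274 at 1, and 106 and 318 with at least 3 marker UMIs. They were 125 and 52 with TMM over all genes and 139 and 52 without the top cell of each gene. The lower count was 41 with at least 10 marker UMIs, 46 with insulin below 5%, 28 without the mixed members and 63 without the proliferating members. The cause was not tested. TMM over all genes, the mixed, proliferating and depth-matched settings and the median-gene scaling were added after seeing the data.

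List medians changed sign in 68 of 360 alternative values, and 18 of 20 lists changed sign at least once, 12 of them without the mixed members. The B1 and survival lists did not. These medians were first counted as reversals and later, since a median is not a called value, as changes of sign.

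Called genes reversed as follows. Without the top cells Gsn was at 0.85, Ccl4 at -0.15, Hspa1b at 0.10, Sst at 0.91 and Ppy at 0.20. With at least 10 marker UMIs Gsn was at 1.33, Hspa1b at 0.33, Sst at 1.04 and Ppy at 0.25, and with at least 3 Ppy was at 0.99. With insulin below 5% Dnajb1 was at 0.064, Hspa1b at 0.37, Sst at 0.85 and Ppy at 0.24. Without the mixed members Gsn was at 1.38, Dnajb1 at 0.017, Hspa1b at 1.05, Sst at 1.15 and Ppy at 0.27. Without the proliferating members Mcm3 was at -0.38.

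At median depths of 8775 and 10131 UMIs a gene of few UMIs is missed in many cells, and 40 of 66 detection shares left their thinned interval when unthinned. The 33 genes thinned were chosen after their values were seen. A single random thinning gave intervals that did not overlap for 2 of them, S100a6 and Bcl2 (4.17% and 36.8%). The share expected over all draws, added after seeing the data, did so for S100a6 alone. For Top2a a single draw gave 20.8% and 8.77%, and the expected shares were 12.65% and 13.6%. The planned light chain alternatives were not run. No paired analysis was possible because each genotype has 1 library, and leaving out a library would leave no comparison.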
